A study of Mus musculus with 12 samples.

Results

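The cytochromes P450 of families 1 to 3 are the haem enzymes by which hepatocytes oxidise drugs, toxicants, steroids and fatty acids. The genes described here are 44 members of these families named by symbol, found in the deposited table by Ensembl gene ID. A row was found for 43 of them among the 35709 genes of the table, and Cyp2d13 was not analysed here. Cyp2e1, the main enzyme that activates carbon tetrachloride (CCl4), was left out of the group. RNA-seq was done on hepatocytes isolated from male C57BL/6J mice of 8 to 10 weeks, 48 h after the injection of CCl4 (0.4 mg/g, dissolved in olive oil) or of the oil alone. The 4 groups of 3 libraries were Alb-R3 after CCl4, Alb-R3 after oil, Alb-Cre after CCl4 and Alb-Cre after oil. Alb-R3 mice are labelled as lacking the receptor gene Fgfr3 in hepatocytes, and Alb-Cre mice are their controls. Cre is driven by the albumin promoter, which is active in hepatocytes, and the controls carry Cre too. The labels do not say that the libraries of a group came from separate animals, so the p-values below measure the spread between libraries, which may be technical.

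P450 enzymes sit in the endoplasmic reticulum and take electrons from the reductase Por, with cytochrome b5 as a helper. Their genes lie in clusters of close copies, and much of their control is transcriptional. The aryl hydrocarbon receptor AHR induces the Cyp1a genes, the nuclear receptor CAR (Nr1i3) is best known for Cyp2b10 and several Cyp2c genes, and the nuclear receptor PXR (Nr1i2) for Cyp3a11. In mouse liver many members are zonated along the lobule, most of them towards the central vein, and several differ between males and females under the control of the growth hormone rhythm.

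Levels are normalized counts as the authors deposited them, unless FPKM is named, and library values are given in the order of replicates 1, 2 and 3. Differences are log2 fold changes of the normalized count plus 1 with limma's standard error (SE, n = 3 libraries per group), and a gene was called at a limma adjusted p under 0.05 over the 20244 genes tested. The low-value filter of that fit was passed by each of the 43 measured genes. Library totals ran from 27215000 to 38828900 normalized counts. Alb-R3 CCl4 replicate 1 stood apart: mitochondrially encoded genes made up 32.3% of it, against 6.22% to 12.8% of the other 11 libraries, and the 43 P450 genes 0.448%, against 1.01% to 2.06%. It lay below both other Alb-R3 CCl4 libraries in 35 of the 43 genes, as it did in 38.1% of the tested genes. Its median ratio to the mean of these libraries was 0.322 over the P450 genes and 0.956 over the tested genes. Results that rest on this library are therefore given with and without it.

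Fgfr3 measured 477.7, 372.1 and 382.3 in Alb-R3 CCl4, 523.1, 650.5 and 1109 in Alb-R3 oil, 950.9, 705.7 and 753.0 in Alb-Cre CCl4 and 734.9, 887.6 and 988.1 in Alb-Cre oil. The highest of the 12 values was that of the library labelled Alb-R3 oil replicate 3, although its label names a loss of Fgfr3. A level per gene cannot settle whether the label is right, and the library was kept as labelled. Fgfr3 was not called between the genotypes, with a log2 difference of -0.26 after oil and -0.96 after CCl4. With CCl4 against oil it was lower in Alb-R3 (-0.82, called with and without Alb-R3 CCl4 replicate 1) and not called in Alb-Cre (-0.12). The 10 hepatocyte markers, among them the albumin gene Alb, were measured in each library, and 1 of them, Tat, was called in the 5 comparisons with all libraries (lower with CCl4 in Alb-R3). Markers of other liver cells moved with CCl4 in Alb-R3: 12 of 12 Kupffer cell and macrophage, 8 of 10 endothelial, 9 of 10 stellate cell and fibroblast and 2 of 5 tested cholangiocyte markers were higher, and 0 of 7 tested lymphocyte and neutrophil markers (10, 9, 10, 2 and 0 without Alb-R3 CCl4 replicate 1). In Alb-Cre, 4 stellate cell markers and 1 cholangiocyte marker were higher with CCl4. Of all tested genes 10.9% rose and 6.92% fell in Alb-R3 (9.84% and 6.21% without Alb-R3 CCl4 replicate 1), and 3.46% rose in Alb-Cre. The summed level of the Kupffer cell markers was 2709 to 14092 in Alb-R3 CCl4, 924 to 1353 in Alb-R3 oil, 1622 to 2088 in Alb-Cre CCl4 and 1429 to 2873 in the oil libraries of Alb-Cre. That of the endothelial markers was 4747 to 5193 in Alb-R3 CCl4, 1840 to 2186 in Alb-R3 oil, 3738 to 5250 in Alb-Cre CCl4 and 3192 to 4684 in the oil libraries of Alb-Cre. For both lists the Alb-R3 oil libraries were the lowest of the 12. The stellate cell sum was 1387 to 3654 in Alb-R3 CCl4, 629 to 805 in Alb-R3 oil, 2133 to 2825 in Alb-Cre CCl4 and 1447 to 1592 in the oil libraries of Alb-Cre. The cholangiocyte sum was 543 to 6215 in Alb-R3 CCl4, 184 to 237 in Alb-R3 oil, 322 to 986 in Alb-Cre CCl4 and 133 to 174 in the oil libraries of Alb-Cre. The lymphocyte and neutrophil sum was 16.8 to 914 in Alb-R3 CCl4, 4.38 to 10.6 in Alb-R3 oil, 8.75 to 33.2 in Alb-Cre CCl4 and 7.78 to 28.6 in the oil libraries of Alb-Cre. Replicate 1 was the highest Alb-R3 CCl4 library in the Kupffer cell, cholangiocyte, and lymphocyte and neutrophil sums. Replicates 2 and 3 of that group held 2709 and 3433, 1246 and 543, and 16.8 and 20.8. In the stellate cell sum replicate 1 was the lowest of that group (1387). Of the Kupffer cell and endothelial markers 0 were at 0 throughout a group. Cftr was at 0 in Alb-R3 CCl4, Alb-R3 oil and Alb-Cre oil, Krt19, Nkg7 and Ly6g in Alb-R3 oil, Ly6g in Alb-Cre CCl4 and Acta2 in Alb-Cre oil. Between the genotypes 1 marker was called, the endothelial Ptprb, lower in Alb-R3 after oil, where 0.109% of all tested genes were lower. The values of Alb-R3 CCl4 replicate 1 enter the shared estimate of the spread. Without that library 4 endothelial and 2 stellate cell markers were lower in Alb-R3 after oil, where 0.318% of the tested genes were. The part of these cells in the results was not tested, and in bulk RNA fewer cells of a type and less RNA per cell cannot be told apart.

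Near-identical copies limit what a value per gene can tell. The coding sequences of 9 pairs were at least 95% identical, led by Cyp2a4 and Cyp2a5 at 98.4%, Cyp2c67 and Cyp2c69 at 97.7%, Cyp3a25 and Cyp3a59 at 97.5% and Cyp2c67 and Cyp2c68 at 97.1%. Of the 31-base words in the Cyp2a4 transcripts 58.9% also occur in another gene, and the share reaches 83.1% in Cyp2c40, so values within such a pair are uncertain. In 17 of the 43 genes the share is under 20%, among them Cyp2c23, Cyp2d22, Cyp2j5 and Cyp2u1. The likeness of Cyp2a4 (chromosome 7, 26307169 to 26315088, plus strand, GENCODE M21 on GRCm38) and Cyp2a5 (chromosome 7, 26835305 to 26843548, plus strand) extends upstream of the genes. Their promoters, from RefSeq on GRCm38.p6, are shown because Cyp2a4 had the smallest adjusted p of the 43 genes between the genotypes and Cyp2a5 is its nearest copy. The 146 bases, at chr7:26307013-26307158 for Cyp2a4 and chr7:26835159-26835304 for Cyp2a5, both on the plus strand, differ at 3 positions, which stand in capitals, and are 97.9% identical.
Cyp2a4: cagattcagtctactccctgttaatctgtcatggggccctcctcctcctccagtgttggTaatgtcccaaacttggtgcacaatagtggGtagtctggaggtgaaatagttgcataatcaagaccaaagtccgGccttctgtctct
Cyp2a5: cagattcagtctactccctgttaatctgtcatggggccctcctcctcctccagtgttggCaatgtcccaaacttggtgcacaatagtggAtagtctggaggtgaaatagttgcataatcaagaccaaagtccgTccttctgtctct

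Promoters were at hand for 36 of the measured genes, and the 250 bases before the RefSeq start were searched on both strands for 3 motifs. The core of the site bound by AHR, GCGTG, was in 4 of them (Cyp1a1, Cyp2b10, Cyp2c68 and Cyp2j9), and in 28.2% of all 32851 promoters. The HNF4A motif CAAAGTCCA was in 7 (Cyp2c40, Cyp2c67, Cyp2c68, Cyp2c69, Cyp2c70, Cyp3a11 and Cyp3a16), and in 0.384% of all promoters. Several of the 7 are close copies, so they are not independent matches. The STAT motif TTCNNNGAA was in 0 of the 36 and in 7.02% of all promoters. A match is a description of the sequence and not a bound site. The promoter of Cyp1a1, shown because Cyp1a1 rose in Alb-R3, lies at chr9:57697433-57697612 on the plus strand. GENCODE M21 places that gene at 57687928 to 57703824, so its RefSeq promoter lies within this span. The promoter of Cyp2c67, shown because Cyp2c67 fell in Alb-R3, lies at chr19:39649052-39649222 on the minus strand. The motif stands in capitals.
Cyp1a1: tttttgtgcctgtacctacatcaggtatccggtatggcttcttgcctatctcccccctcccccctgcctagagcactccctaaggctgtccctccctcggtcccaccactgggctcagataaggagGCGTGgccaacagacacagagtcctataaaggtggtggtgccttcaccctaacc
Cyp2c67: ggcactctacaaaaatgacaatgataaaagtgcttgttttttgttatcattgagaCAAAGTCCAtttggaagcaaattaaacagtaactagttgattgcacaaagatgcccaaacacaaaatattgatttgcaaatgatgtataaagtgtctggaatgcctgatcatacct

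In Alb-Cre mice given oil, the level per length differed widely among the genes. The highest FPKM belonged to Cyp3a11, the main PXR-induced steroid and drug hydroxylase, at 1198 ± 399 (SD, n = 3), to Cyp2d9, a testosterone hydroxylase of male mouse liver, at 1181 ± 214, and to Cyp2f2, which activates naphthalene and is enriched around the portal vein, at 1135 ± 293. These 3 means differed by less than their SD. Next came Cyp2d10 at 927 ± 49.6, Cyp2d26 at 841 ± 34.1, Cyp2c29 at 725 ± 154, Cyp1a2 at 505 ± 126 and Cyp3a25 at 503 ± 98.9. At the low end were Cyp1a1 at 0.262 ± 0.0403, Cyp3a44 at 0.0444 ± 0.0237, Cyp3a16 at 0.0386 ± 0.0205 and Cyp2b13 at 0.0120 ± 0.0209, the last 3 known for their higher level in females. The highest means over all 12 libraries within a subfamily were those of Cyp1a2, Cyp2a5, Cyp2b10, Cyp2c29, Cyp2d9, Cyp2f2, Cyp2j5 and Cyp3a11.

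The response to CCl4 was asked first in Alb-R3 hepatocytes. Of the 43 genes 15 fell and 3 rose, where 6.92% of all tested genes fell and 10.9% rose. The median log2 fold change was -0.85 over the 43 genes and 0.00 over all tested genes. The decreases were in Cyp2c (7 of 13 genes), Cyp2d (4 of 8), Cyp2j (2 of 3), Cyp2u1 and Cyp3a25 (1 of 6 in Cyp3a), and the increases were Cyp1a1, Cyp2a22 and Cyp3a44. Of the 3 Cyp2b genes 0 were called. Groups did not overlap in 19 genes that were lower and 4 that were higher with CCl4, against 15.5% and 18.1% of all tested genes. Without Alb-R3 CCl4 replicate 1 the median was -0.28, 10 genes fell and 5 rose, where 6.21% and 9.84% of the tested genes did, and 13 genes were called with and without it. Among the 17 genes with little shared sequence 7 fell and 1 rose (5 and 2 without that library). Scaling the libraries to their totals without mitochondrial genes raised the median of all tested genes in Alb-R3 by 0.38. It gave 500 lower and 4663 higher of 19884 tested genes, in place of 1400 and 2198 of 20244. Under that scaling 11 of the 43 P450 genes fell and 3 rose. On FPKM 590 of 15445 tested genes were lower and 3120 higher, and 10 P450 genes fell and 3 rose.

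**Figure D1:**
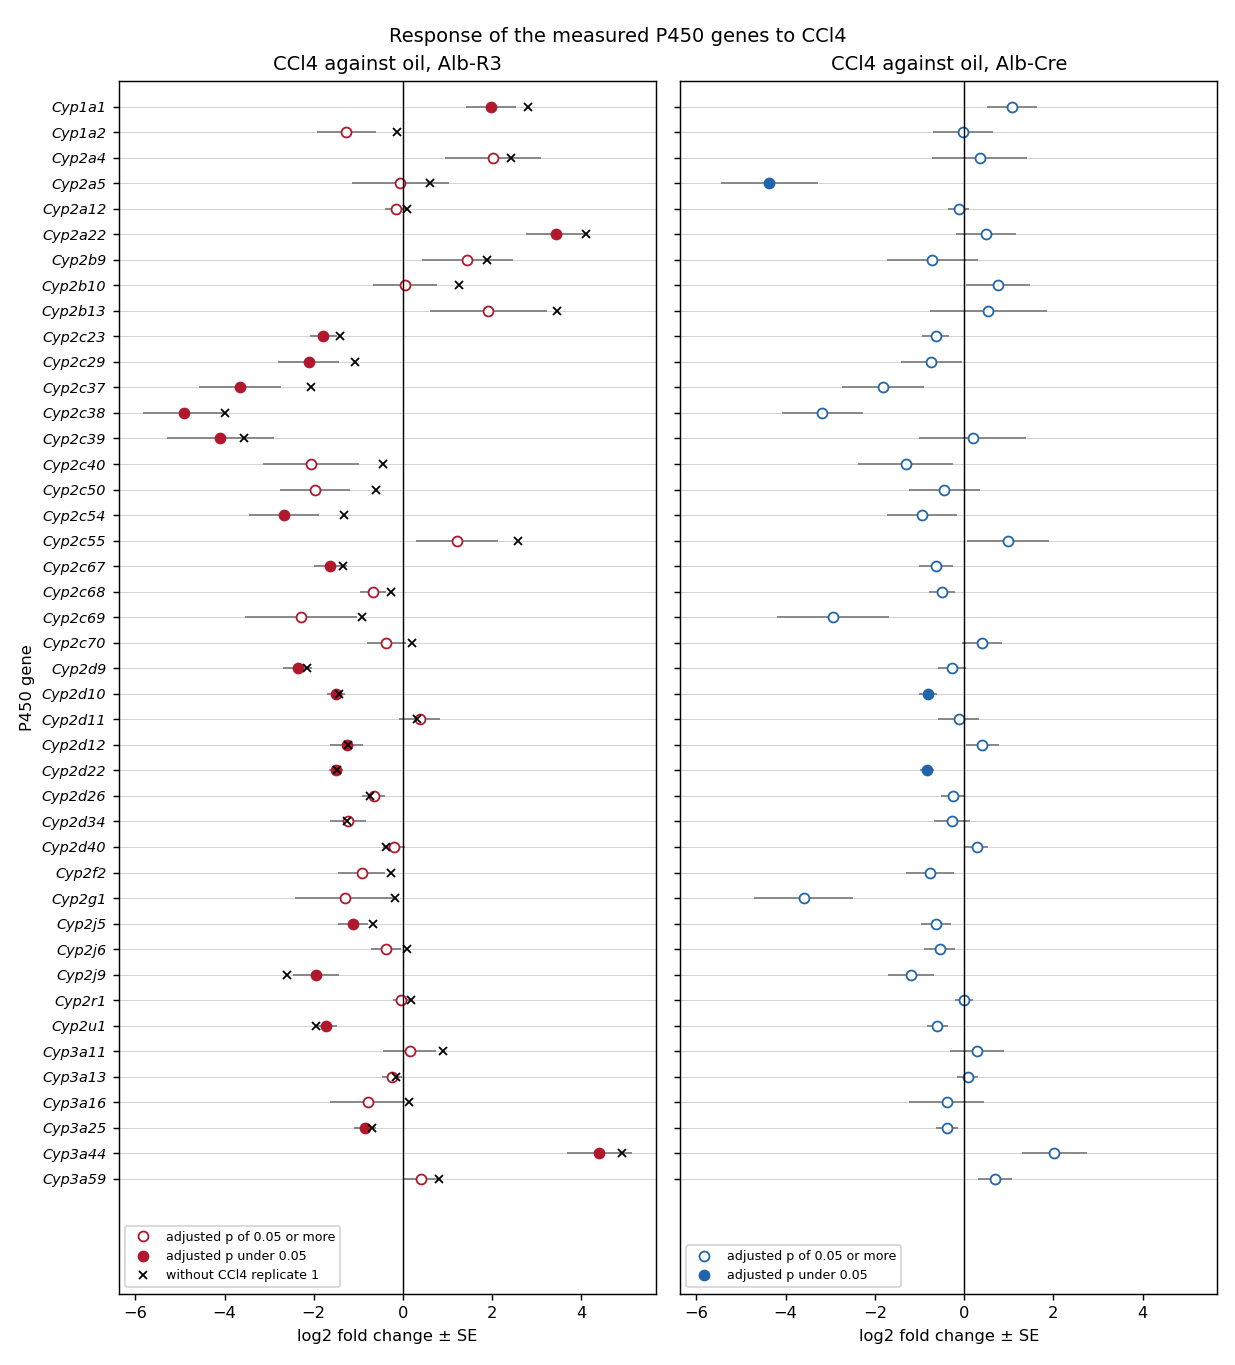
Log2 fold change (horizontal axis) with CCl4 against oil of each measured P450 gene in Alb-R3 (left, red) and Alb-Cre (right, blue), with limma's SE as a bar. Filled circles mark adjusted p under 0.05 and crosses the Alb-R3 value without CCl4 replicate 1. In Alb-R3 15 filled circles lie below 0 and 3 above it, and in Alb-Cre 3 lie below 0.

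The Cyp2c genes, a cluster on chromosome 19 whose enzymes hydroxylate steroids and make epoxides of arachidonic acid, held the deepest decreases. Cyp2c38, an arachidonic acid oxidase, measured 23.5, 139.5 and 193.1 in Alb-R3 CCl4 and 3121, 3116 and 1841 in Alb-R3 oil. It fell by 4.90 ± 0.91 on the log2 scale (adjusted p = 0.00291), and the log2 fold change without replicate 1 was -3.99. Cyp2c37 measured 60.56, 1357 and 2043 with CCl4 and 6944, 7344 and 6731 with oil, a log2 fold change of -3.66 ± 0.92 (adjusted p = 0.0155) that was -2.07 without replicate 1 (adjusted p = 0.000693). Its near copy Cyp2c54 measured 297.2, 5032 and 4892 with CCl4 and 11320, 13060 and 12880 with oil (-2.67 ± 0.78, adjusted p = 0.0324, and -1.32 without replicate 1, adjusted p = 0.00537). The Cyp2c54 call was lost without any single Alb-R3 oil library (adjusted p = 0.0785 to 0.0876). In each of these 3 genes the CCl4 and oil libraries of Alb-R3 were fully apart. Cyp2c29, a CAR-induced and pericentral gene, measured 4342, 41500 and 33740 with CCl4 and 77870, 84920 and 75010 with oil. Its log2 fold change of -2.12 ± 0.69 (adjusted p = 0.0492) was -1.08 without replicate 1, where the call was lost (adjusted p = 0.0971).

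Cyp2c23, an arachidonic acid epoxygenase whose transcript shares no 31-base word with another gene, measured 2055, 5448 and 3531 in Alb-R3 CCl4 and 10470, 13930 and 11060 in Alb-R3 oil. It fell by 1.78 ± 0.30 (adjusted p = 0.00145), and its log2 fold change without replicate 1 was -1.42 (adjusted p = 0.00155). Cyp2c67 measured 1931, 4816 and 2627 with CCl4 and 9510, 9329 and 8170 with oil (-1.63 ± 0.37, adjusted p = 0.00976). Both kept the groups apart in every library. Cyp2c39, a retinoic acid hydroxylase, measured 22.94, 37.77 and 135.6 with CCl4 and 3177, 3460 and 56.57 with oil, the last in the library labelled Alb-R3 oil replicate 3. The groups thus overlapped, and the log2 fold change of -4.10 ± 1.20 (adjusted p = 0.0319) was -6.04 without that oil library (adjusted p = 9.89e-05) and -3.56 without CCl4 replicate 1 (adjusted p = 0.0814). The other Cyp2c genes were Cyp2c40, Cyp2c50, Cyp2c55, Cyp2c68, Cyp2c69 and Cyp2c70, with log2 fold changes from -2.28 (Cyp2c69) to 1.22 (Cyp2c55) and no call. Cyp2c55, which CAR and PXR activators induce, was called higher without replicate 1 (2.58, adjusted p = 0.00921): it measured 99.04, 2097 and 1393 with CCl4 and 223.2, 227.8 and 454.1 with oil.

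The Cyp2d genes form a cluster on chromosome 15, and 4 of the 8 measured fell in Alb-R3. Cyp2d22, which shares 9.97% of its 31-base words, measured 3676, 3857 and 3716 in Alb-R3 CCl4 and 10050, 10700 and 11100 in Alb-R3 oil, a log2 fold change of -1.50 ± 0.15 (adjusted p = 2.98e-05, the smallest of the 43 genes). Cyp2d10 measured 12840, 16210 and 13200 with CCl4 and 38840, 36890 and 43730 with oil (-1.50 ± 0.20, adjusted p = 0.000281). Cyp2d9 measured 7861, 18580 and 8356 with CCl4 and 49010, 58370 and 58240 with oil (-2.36 ± 0.32, adjusted p = 0.000272). For these abundant genes each CCl4 value was under every oil value, and without replicate 1 the log2 fold changes were -1.49 for Cyp2d22, -1.44 for Cyp2d10 and -2.14 for Cyp2d9. Cyp2d12, a low member, measured 46.34, 43.5 and 54.41 with CCl4 and 120.3, 118 and 111.3 with oil (-1.27 ± 0.37, adjusted p = 0.0317, and 0.0554 without replicate 1). Cyp2d11, Cyp2d26, Cyp2d34 and Cyp2d40 were not called, with log2 fold changes from -1.24 (Cyp2d34, adjusted p = 0.0504) to 0.37 (Cyp2d11).

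Outside these clusters 4 genes fell in Alb-R3. Cyp2u1, a fatty acid hydroxylase, measured 739.5, 531.3 and 404.1 with CCl4 and 1791, 1307 and 2473 with oil (-1.73 ± 0.24, adjusted p = 0.000338). It was 1 of 5 genes with replicate 1 as the highest Alb-R3 CCl4 library, as was Cyp2j9. Cyp2j9 measured 412.7, 123.1 and 90.56 with CCl4 and 564.6, 498.7 and 940.9 with oil, a log2 fold change of -1.94 ± 0.51 (adjusted p = 0.0199) that was -2.59 without replicate 1. Its call was lost without CCl4 replicate 2 or 3 or oil replicate 3 of Alb-R3 (adjusted p = 0.0616, 0.0735 and 0.0768). Cyp2j5, an arachidonic acid epoxygenase of liver and kidney, measured 4351, 11910 and 10040 with CCl4 and 18950, 18950 and 14840 with oil, with no overlap (-1.12 ± 0.33, adjusted p = 0.034, and 0.0745 without replicate 1). Cyp3a25 measured 10940, 14800 and 15630 with CCl4 and 27620, 21810 and 24640 with oil (-0.85 ± 0.25, adjusted p = 0.0347, and 0.0792 without replicate 1). The third Cyp2j gene, Cyp2j6, was at -0.38 ± 0.34 and was not called.

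Low-level genes made up the 3 that rose in Alb-R3. Cyp3a44, a female-biased copy beside Cyp3a11, measured 43.47, 171.8 and 98.0 with CCl4 and 2.213, 1.149 and 10.73 with oil, a log2 fold change of 4.40 ± 0.73 (adjusted p = 0.00134). It shares 48.4% of its 31-base words with other genes, and its level with CCl4 was 0.0669% to 0.136% of the summed level of Cyp3a44 and Cyp3a11. Cyp2a22 measured 127.0, 407.1 and 676.9 with CCl4 and 33.44, 24.1 and 31.57 with oil (3.43 ± 0.67, adjusted p = 0.00372), with no overlap. Cyp1a1, the AHR-induced oxidase of polycyclic aromatic hydrocarbons, measured 20.69, 103.0 and 134.3 with CCl4 and 9.961, 21.84 and 19.04 with oil. Its log2 fold change was 1.98 ± 0.57 (adjusted p = 0.0295), and 2.79 without replicate 1 (adjusted p = 0.00028), the library that overlapped the oil values. The Cyp1a1 call was lost without Alb-R3 CCl4 replicate 2 or 3 (adjusted p = 0.0966 and 0.112). It was also lost without Alb-R3 oil replicate 1 or 3 (adjusted p = 0.115 and 0.056). Cyp2b10, the classical CAR target, measured 46.42, 411.6 and 805.8 with CCl4 and 240.7, 194.9 and 296.8 with oil. It was at 0.05 ± 0.72 with all libraries and was called higher without replicate 1 (1.26, adjusted p = 0.0148).

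The remaining abundant genes were not called in Alb-R3. Cyp1a2, a pericentral oxidase of aromatic amines, measured 2443, 28530 and 23140 with CCl4 and 27750, 30790 and 26480 with oil. Cyp2f2 measured 8512, 39790 and 27500 with CCl4 and 40010, 41670 and 38290 with oil, and Cyp3a11 31870, 156900 and 146300 with CCl4 and 72400, 89160 and 82550 with oil. In these 3 genes replicate 1 was the lowest of the 12 libraries, and for Cyp3a11 the other CCl4 libraries lay above the oil libraries. Cyp2a5, a coumarin hydroxylase, measured 3304, 9061 and 19670 with CCl4 and 6525, 9212 and 11020 with oil (-0.06 ± 1.09). The genes without a call here and not yet named in this comparison were Cyp2a4, Cyp2a12, Cyp2b9, Cyp2b13, Cyp2g1, Cyp2r1 (a vitamin D hydroxylase), Cyp3a13, Cyp3a16 and Cyp3a59. They ran from -1.31 ± 1.11 (Cyp2g1) to 2.03 ± 1.07 (Cyp2a4).

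**Figure D2:**
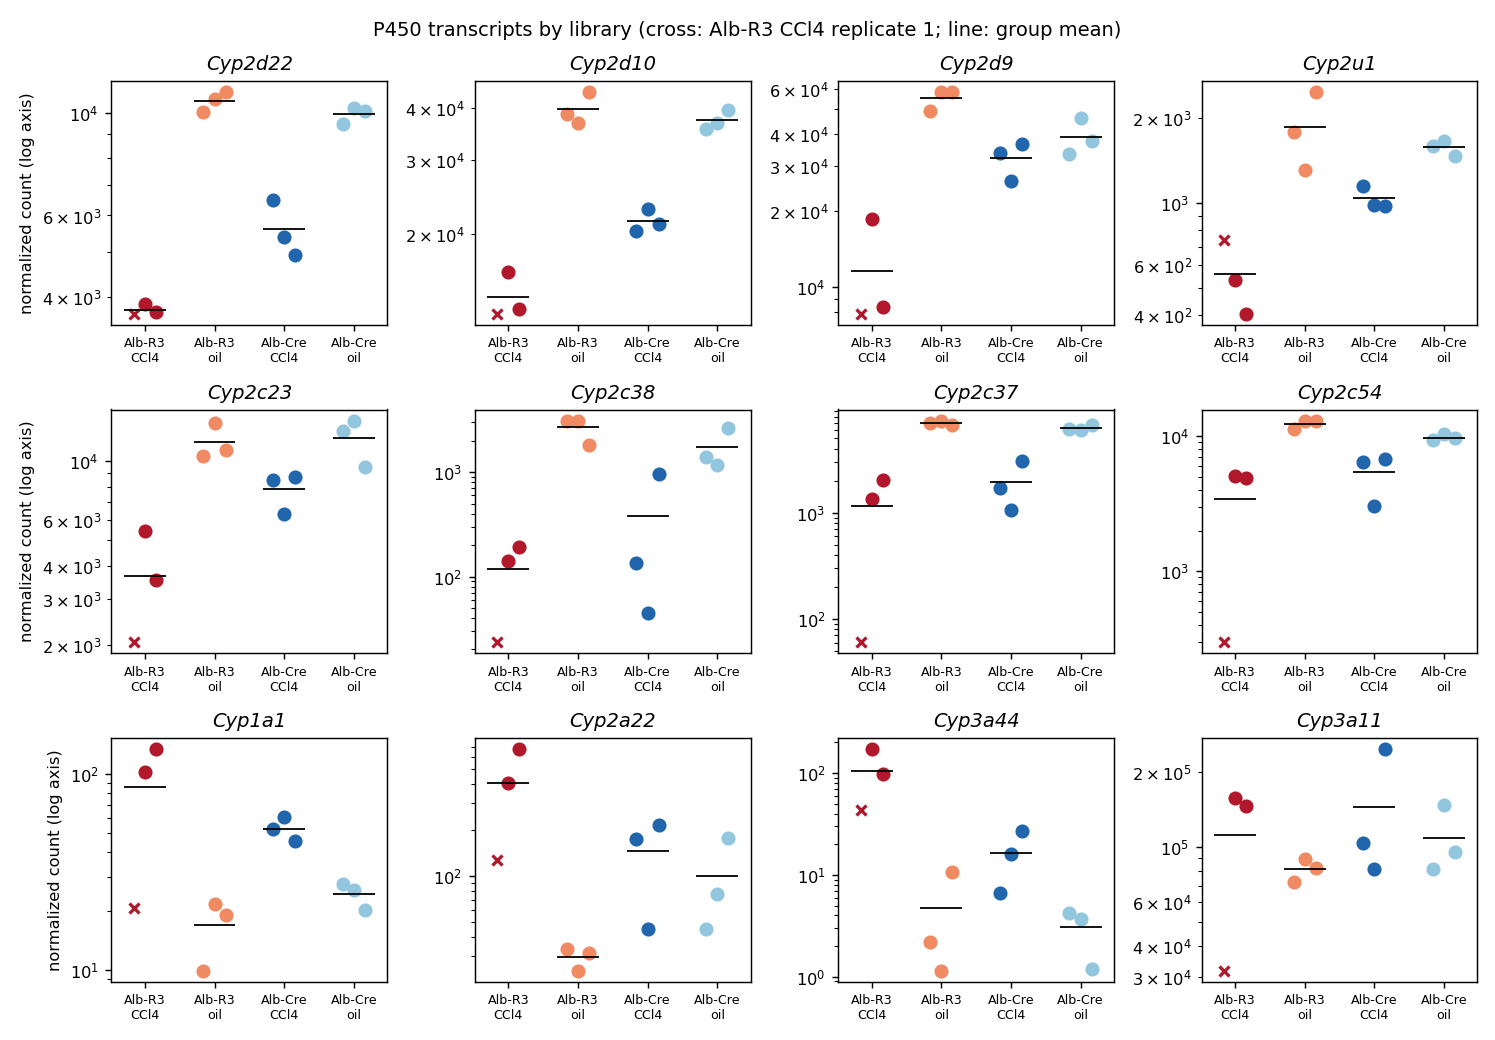
Normalized count (vertical log axis) of 12 P450 genes in each library, grouped from left to right as Alb-R3 CCl4, Alb-R3 oil, Alb-Cre CCl4 and then Alb-Cre oil, with the group mean as a line and Alb-R3 CCl4 replicate 1 as a cross. Cyp2d22 is lowest in the 3 Alb-R3 CCl4 libraries (3676 to 3857), while for Cyp2c37 and Cyp2c54 the cross lies far below the other libraries.

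In Alb-Cre hepatocytes 3 of the 43 genes fell with CCl4 and 0 rose, where 0.988% of all tested genes fell and 3.46% rose. The median log2 fold change was -0.38 over the 43 genes and 0.02 over all tested genes. Scaling without mitochondrial genes gave 116 lower and 1189 higher of 19884 tested genes in place of 200 and 700 of 20244. On FPKM 107 of 15445 tested genes were lower and 1229 higher. Of the P450 genes 2 fell under that scaling and 1 on FPKM. Cyp2d22 measured 6487, 5387 and 4929 in Alb-Cre CCl4 and 9467, 10250 and 10090 in Alb-Cre oil (-0.84 ± 0.15, adjusted p = 0.00506). Cyp2d10 measured 20330, 22900 and 21070 with CCl4 and 35590, 36950 and 39630 with oil (-0.80 ± 0.20, adjusted p = 0.039). In both genes the groups were apart. Cyp2a5 measured 926.1, 63.39 and 4692 with CCl4 and 16690, 12050 and 12180 with oil, a log2 fold change of -4.36 ± 1.09 (adjusted p = 0.0382) with a wide spread among the CCl4 libraries. It was -2.69 without Alb-Cre CCl4 replicate 2, where the call was lost (adjusted p = 0.0659). The Cyp2a5 call was also lost without any single Alb-Cre oil library (adjusted p = 0.0919 to 0.126), and was kept in 9 of 23 alternatives. The Cyp2d10 call was kept in 9 of 23 as well, and was lost without any single Alb-Cre library (adjusted p = 0.0799 to 0.122). Without Alb-R3 CCl4 replicate 1, whose values enter the shared estimate of the spread, 7 genes fell, where 2.29% of the tested genes fell and 4.93% rose, adding Cyp2c37, Cyp2c38, Cyp2c54 and Cyp2g1.

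Of the genes that fell in Alb-R3, several were lower in Alb-Cre without a call. Cyp2c38 measured 133.7, 44.59 and 958.3 in Alb-Cre CCl4 and 1411, 1170 and 2642 in Alb-Cre oil (-3.18 ± 0.91, adjusted p = 0.0741). Cyp2c37 measured 1693, 1069 and 3033 with CCl4 and 6095, 6039 and 6630 with oil (-1.82 ± 0.92, adjusted p = 0.342), and Cyp2c54 6450, 3037 and 6739 with CCl4 and 9313, 10340 and 9623 with oil. Groups did not overlap in 11 of the 43 genes that were lower and 3 that were higher with CCl4, against 10.4% and 13.3% of all tested genes, and these 3 Cyp2c genes are among the 11. Cyp1a1, with 52.26, 60.24 and 45.49 with CCl4 and 27.62, 25.57 and 20.42 with oil, was one of the 3 (1.07 ± 0.57, adjusted p = 0.377). Cyp3a44 was another, with 6.644, 16.21 and 26.76 with CCl4 and 4.253, 3.725 and 1.199 with oil. Cyp3a11 measured 104200, 81500 and 247700 with CCl4 and 81680, 147300 and 95810 with oil, and the groups overlapped. Cyp1a2 was at -0.02 ± 0.67 and Cyp2f2, with 40870, 11600 and 31400 with CCl4 and 46720, 50800 and 30570 with oil, at -0.76 ± 0.53. The 40 genes without a call in Alb-Cre ran from -3.60 (Cyp2g1) to 2.02 (Cyp3a44).

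Summed levels do not depend on how reads are split between the measured genes of 1 subfamily. They can still depend on reads shared with genes outside the sum. The Cyp2d sum was 53235, 63307 and 47852 in Alb-R3 CCl4, 136568, 145616 and 150978 in Alb-R3 oil, 86758, 104040 and 88882 in Alb-Cre CCl4 and 117868, 129466 and 124076 in Alb-Cre oil. The 4 groups did not overlap, and the mean with CCl4 was 0.380 of that with oil in Alb-R3 (0.385 without replicate 1) and 0.753 in Alb-Cre. The Cyp2c sum was 18027, 102576 and 87592 in Alb-R3 CCl4, 165630, 186500 and 169434 in Alb-R3 oil, 95656, 59696 and 134482 in Alb-Cre CCl4 and 134694, 159573 and 111354 in Alb-Cre oil. The ratio of CCl4 to oil was 0.399 in Alb-R3 (0.547 without replicate 1) with no overlap, and 0.715 in Alb-Cre with overlap. For Cyp2j it was 0.525 in Alb-R3 (0.650 without replicate 1) and 0.637 in Alb-Cre, apart in both genotypes on normalized counts and overlapping in both on FPKM.

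The other subfamily sums did not separate CCl4 from oil in Alb-R3. The ratio was 1.37 for Cyp2a (1.70 without replicate 1), 3.02 for Cyp2b (4.15), 1.17 for Cyp3a (1.55) and 0.639 for Cyp1a (0.915). The Cyp2b sum in Alb-R3 CCl4 was 367, 722 and 3169, so its ratio rested largely on replicate 3. With 1 library left out, the log2 ratio in Alb-R3 ran from 0.215 to 2.05 for Cyp2b and from -0.05 to 0.63 for Cyp3a. On FPKM the Cyp1a ratio without replicate 1 was 1.18, on the other side of 1. In Alb-Cre the Cyp2a sum was lower with CCl4, with a ratio of 0.613 and no overlap, and the ratio was 0.848 for Cyp2b, 1.24 for Cyp3a and 0.985 for Cyp1a, with overlap. The Cyp1a and Cyp2b ratios in Alb-Cre lay on the other side of 1 on FPKM (1.16 and 1.12). With 1 library left out, the log2 ratio in Alb-Cre changed sign for Cyp2b (-0.58 to 0.78), Cyp3a (-0.25 to 0.57) and Cyp1a (-0.22 to 0.15). The sum of the 43 genes in Alb-R3 CCl4 was 0.643 of that in Alb-R3 oil, and 0.820 without replicate 1. With the libraries scaled without mitochondrial genes these ratios were 0.845 and 1.06, so without replicate 1 the summed level was not lower with CCl4 under that scaling.

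**Figure D3:**
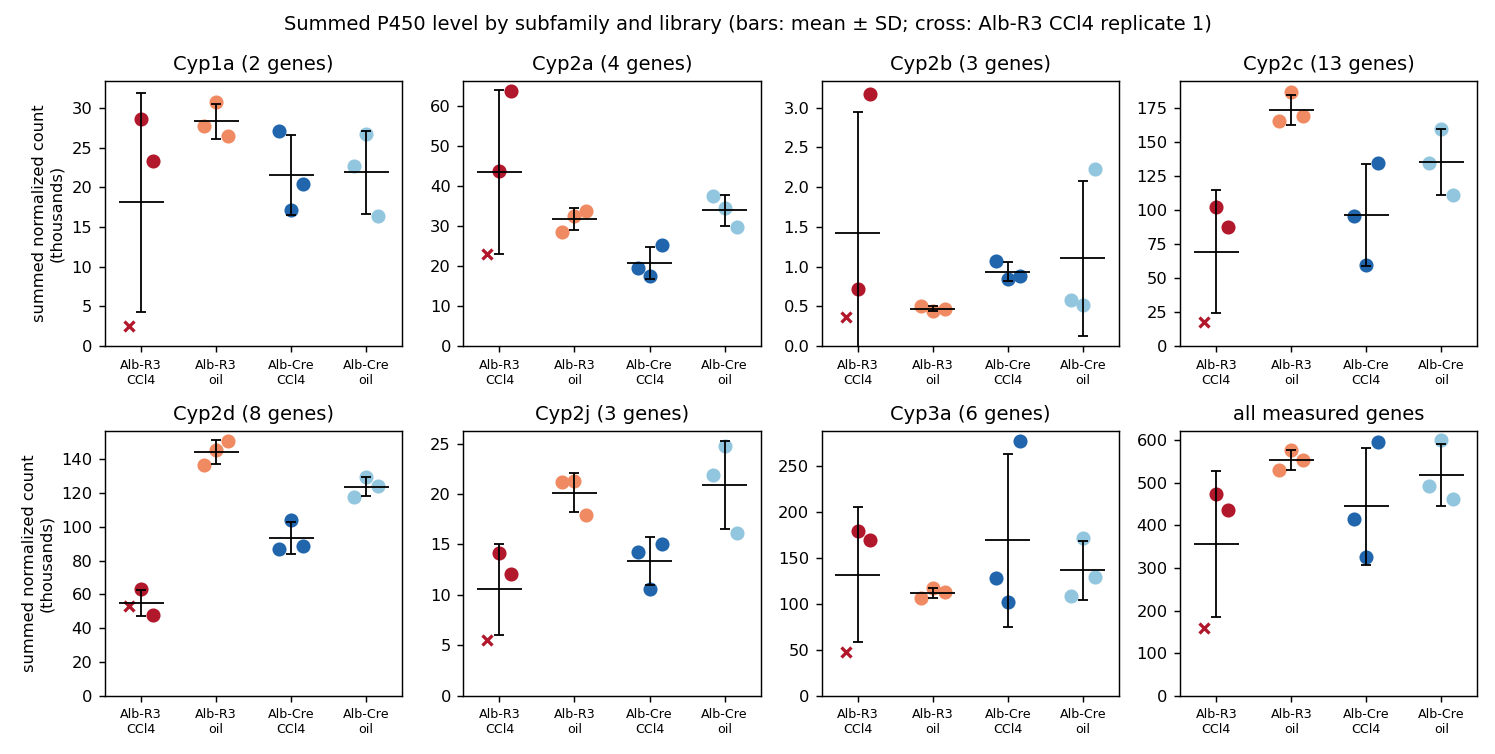
Summed normalized count (vertical axis, from 0, in units of 1000 as labelled) of the measured genes of 7 subfamilies and of the 43 genes, in each library of Alb-R3 (CCl4, then oil) and Alb-Cre (CCl4, then oil), with the mean and SD (n = 3) in black and Alb-R3 CCl4 replicate 1 as a cross. The 4 groups are apart for Cyp2d, and for the other sums the cross is the lowest Alb-R3 value.

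After CCl4, 0 of the 43 genes were called between Alb-R3 and Alb-Cre, where 0.084% of all tested genes were higher and 0.0889% lower in Alb-R3, and 11 had an unadjusted p under 0.05, as had 1573 of all tested genes. Without Alb-R3 CCl4 replicate 1, 0 were called again, where 0.0757% were higher and 0.116% lower. Scaling without mitochondrial genes moved the split to 23 higher and 14 lower of 19884 tested genes, in place of 17 and 18 of 20244. The smallest adjusted p belonged to Cyp2a4, a testosterone hydroxylase with a higher level in females. It measured 7343, 11780 and 24060 in Alb-R3 CCl4 and 88.0, 61.28 and 1592 in Alb-Cre CCl4, a log2 difference of 5.95 ± 1.07 (adjusted p = 0.0504, and 0.0565 without Alb-R3 CCl4 replicate 1). Over 23 alternatives it was called in 7, where the adjusted p was between 0.0034 and 0.0456. Cyp2d9 measured 7861, 18580 and 8356 in Alb-R3 CCl4 and 33730, 26200 and 36610 in Alb-Cre CCl4 (-1.58 ± 0.32, adjusted p = 0.0884, and 0.0125 without Alb-R3 CCl4 replicate 2). Cyp2c23 measured 2055, 5448 and 3531 in Alb-R3 CCl4 and 8461, 6287 and 8708 in Alb-Cre CCl4 (-1.18 ± 0.30, adjusted p = 0.252). In each of these 3 genes the genotypes did not overlap.

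Groups did not overlap in 2 genes that were higher (Cyp2a4 and Cyp3a44) and 5 that were lower in Alb-R3 after CCl4 (Cyp2c23, Cyp2d9, Cyp2d10, Cyp2d22 and Cyp2u1), where 6.16% and 5.86% of all tested genes did not. Cyp2d22, with 3676 to 3857 in Alb-R3 CCl4 and 4929 to 6487 in Alb-Cre CCl4, was at -0.57 ± 0.15 (adjusted p = 0.287). Cyp2u1, with 404.1 to 739.5 in Alb-R3 CCl4 and 976.6 to 1150 in Alb-Cre CCl4, was at -0.93 ± 0.24 (adjusted p = 0.256). The Cyp2d sum in Alb-R3 CCl4 was 0.588 of that in Alb-Cre CCl4 (0.596 without replicate 1), and was the only one of the 7 subfamily sums that did not overlap between the genotypes after CCl4 on normalized counts. The Cyp2a sum in Alb-R3 CCl4 was 2.09 times that in Alb-Cre CCl4 (2.59 without replicate 1) and overlapped, while scaled without mitochondrial genes it was 2.27 times as high and did not overlap. The median log2 difference over the 43 genes was -0.30, and 0.18 without replicate 1, so its sign rested on that library.

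After oil, 0 of the 43 genes were called between Alb-R3 and Alb-Cre, where 0.0988% of all tested genes were higher and 0.109% lower, and 3 had an unadjusted p under 0.05, as had 1314 of all tested genes. Without Alb-R3 CCl4 replicate 1, 0 were called again, where 0.202% were higher and 0.318% lower. Quantile normalization gave 23 higher and 15 lower genes over the whole table in place of 20 and 22. The 3 genes were Cyp2a4, Cyp2c39 and Cyp2a22. Cyp2a4 measured 2345, 3385 and 3882 in Alb-R3 oil and 126.0, 47.86 and 693.3 in Alb-Cre oil (4.27 ± 1.07, adjusted p = 0.186). Cyp2c39 measured 3177, 3460 and 56.57 in Alb-R3 oil and 44.36, 18.68 and 48.37 in Alb-Cre oil (4.60 ± 1.20, adjusted p = 0.22). With that last library, labelled Alb-R3 oil replicate 3, left out, Cyp2c39 was called at 6.55 ± 0.62 (adjusted p = 0.00098), while Cyp2a4 stayed without a call (4.11 ± 1.25, adjusted p = 0.442). For Cyp2c39 that library lay beside those of the controls, and for Cyp2a4 it was the highest of the Alb-R3 oil libraries. Cyp2a22 measured 33.44, 24.1 and 31.57 in Alb-R3 oil and 45.08, 76.21 and 177.2 in Alb-Cre oil (-1.50 ± 0.67, adjusted p = 0.727). Groups did not overlap in 9 genes that were higher and 4 that were lower in Alb-R3, against 5.66% and 5.63% of all tested genes. The highest and lowest oil values of Cyp2b10 were 296.8 and 194.9 in Alb-R3 and 454 and 368.1 in Alb-Cre, those of Cyp2c29 84920 and 75010 in Alb-R3 and 64130 and 42430 in Alb-Cre, and neither was called (adjusted p = 1 for both).

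Cyp2a4 thus lay above the controls in all 6 Alb-R3 libraries (2345 to 24060, against 47.86 to 1592 in the 6 Alb-Cre libraries). Its share of the summed level of Cyp2a4 and Cyp2a5 was 69.0%, 56.5% and 55.0% in Alb-R3 CCl4, 26.4%, 26.9% and 26.1% in Alb-R3 oil, 8.68%, 49.2% and 25.3% in Alb-Cre CCl4 and 0.749%, 0.396% and 5.39% in Alb-Cre oil. The Alb-R3 oil libraries were within 1 percentage point of each other. Since 55.9% of the 31-base words of Cyp2a4 also occur in Cyp2a5, the division of reads between the pair is uncertain. The sum of the pair does not depend on that division. It can still depend on reads shared with other genes, since 56.3% of the 31-base words of Cyp2a5 occur elsewhere and 46.3% in Cyp2a4. After CCl4 the sum was 10647, 20841 and 43730 in Alb-R3 and 1014, 124.7 and 6284 in Alb-Cre, with no overlap between the genotypes. After oil it was 8870, 12597 and 14902 in Alb-R3 and 16816, 12098 and 12873 in Alb-Cre, and the genotypes overlapped.

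**Figure D4:**
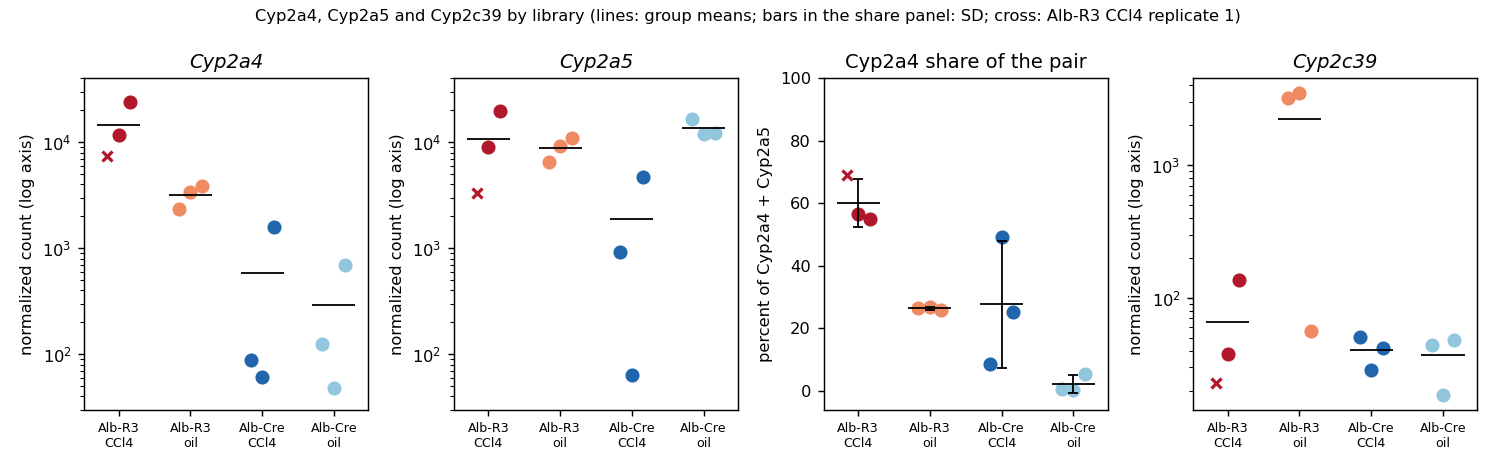
Normalized counts on a log axis of Cyp2a4, Cyp2a5 and Cyp2c39, and the percentage of Cyp2a4 in the sum of Cyp2a4 and Cyp2a5 with mean and SD (n = 3), in each library of Alb-R3 (CCl4, then oil) and Alb-Cre (CCl4, then oil). The Cyp2a4 values of the 6 Alb-R3 libraries (2345 to 24060) lie above those of the 6 Alb-Cre libraries, and Cyp2c39 is high in 2 Alb-R3 oil libraries.

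Whether the response to CCl4 differed between Alb-R3 and Alb-Cre was tested directly by the interaction, the log2 fold change in Alb-R3 minus that in Alb-Cre. It was called for 0 of the 43 genes, as for 0 of the 20244 tested genes (0.0%) with limma. Unadjusted, 10 of the 43 and 1516 of all tested genes had p under 0.05. Without Alb-R3 CCl4 replicate 1, 0 of the 43 were called, where 0.0% were higher and 0.0151% lower. The smallest adjusted p were those of Cyp2d9 (-2.09 ± 0.45, adjusted p = 0.364), Cyp2u1 (-1.12 ± 0.34, adjusted p = 0.444) and Cyp2d12 (-1.67 ± 0.52, adjusted p = 0.464). The interaction of Cyp2a5, which fell in Alb-Cre and was at -0.06 in Alb-R3, was 4.31 ± 1.55 (adjusted p = 0.535). The larger number of calls in Alb-R3 is therefore not shown to be a different response. The median interaction over the 43 genes was -0.47, and -0.04 without Alb-R3 CCl4 replicate 1.

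Some members were also grouped by what is known of them in mouse liver, in lists chosen with earlier results of these data known. Of 7 pericentral genes (Cyp1a2, Cyp2a5, Cyp2c29, Cyp2c37, Cyp2c50, Cyp2c54 and Cyp3a11) 3 fell with CCl4 in Alb-R3, namely Cyp2c29, Cyp2c37 and Cyp2c54, where 6.92% of all tested genes fell, and 1 in Alb-Cre, Cyp2a5, where 0.988% did. Their median log2 fold change was -1.97 in Alb-R3 (-0.61 without replicate 1, with 2 calls) and -0.73 in Alb-Cre, where 3 fell without that library. Of all tested genes 6.21% fell in Alb-R3 and 2.29% in Alb-Cre without it. Cyp2f2, the periportal gene, was called in neither genotype. Of 9 female-biased genes (Cyp2a4, Cyp2b9, Cyp2b10, Cyp2b13, Cyp2c39, Cyp2c40, Cyp2c69, Cyp3a16 and Cyp3a44) 1 rose and 1 fell with CCl4 in Alb-R3, where 10.9% and 6.92% of all tested genes did, and 0 were called in Alb-Cre. Without replicate 1, 2 rose and 0 fell in Alb-R3, where 9.84% and 6.21% of the tested genes did. The median log2 fold change of the 9 genes was then 1.26 in place of 0.05. Between the genotypes after CCl4 the median difference of the female-biased genes was 1.23 (2.22 without replicate 1), against -0.0008 over all tested genes. Of these 9 genes 7 lay above 0 and 2 below, from -1.48 to 5.95. None was called, where 0.084% of all tested genes were higher and 0.0889% lower. Cyp2d9, the 1 male-biased gene listed, was at -1.58 with no call. After oil the median difference of the female-biased genes was 0.57 with 0 calls. Cyp2d9 then lay the other way, at 0.51 with no call, and was higher in each Alb-R3 oil library than in each Alb-Cre oil library. Cyp2b13 measured 1.032, 10.38 and 229.6 in Alb-R3 CCl4 and 0.977, 0 and 4.278 in Alb-Cre CCl4, so its mean in Alb-R3 rested on replicate 3.

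Genes that regulate or serve these enzymes were read beside them. Of 14 regulators and electron carriers 5 fell with CCl4 in Alb-R3 and 1 in Alb-Cre, and 0 rose. Of all tested genes 6.92% fell and 10.9% rose in Alb-R3, and 0.988% fell and 3.46% rose in Alb-Cre. In Alb-R3 the CAR gene Nr1i3 measured 3716, 3483 and 4555 with CCl4 and 7578, 9256 and 9144 with oil (-1.15 ± 0.27, adjusted p = 0.0111), and Cebpa, a hepatocyte transcription factor, fell by 1.30 ± 0.30 (adjusted p = 0.00933). The PXR gene Nr1i2 fell by 0.77 ± 0.24, the cytochrome b5 reductase Cyb5r3 by 0.78 ± 0.24 and the haem-binding Pgrmc1 by 0.75 ± 0.24 (adjusted p = 0.0437, 0.0397 and 0.0442). Without replicate 1 the calls of Nr1i3 and Cebpa were kept and these 3 were lost. In Alb-Cre Cebpa fell by 1.15 ± 0.30 (adjusted p = 0.044). The AHR gene Ahr, the reductase Por and the cytochrome b5 gene Cyb5a were called in neither genotype. None of the 14 was called between the genotypes by limma after CCl4 or after oil.

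Other target genes of the same receptors did not move as 1 group. Of 3 tested AHR targets other than the Cyp1a genes (Tiparp, Ahrr and Nqo1) 0 were called in Alb-R3, and 1, the quinone reductase Nqo1, rose without replicate 1 (2.10, adjusted p = 0.00327). Of 11 CAR and PXR targets 1 rose and 1 fell with CCl4 in Alb-R3, where 10.9% and 6.92% of all tested genes did. Without replicate 1, 2 rose and 1 fell, where 9.84% and 6.21% of the tested genes did. This added the transporter gene Slco1a4 (0.93, adjusted p = 0.00494). The glutathione transferase Gsta1 measured 617, 4722 and 2751 with CCl4 and 146.9, 137.5 and 180.9 with oil (3.69 ± 0.81, adjusted p = 0.00735). The bilirubin-conjugating Ugt1a1 measured 2610, 9535 and 9341 with CCl4 and 19450, 21630 and 16470 with oil (-1.63 ± 0.40, adjusted p = 0.0128). With CCl4 in Alb-Cre 0 of the 3 AHR targets and 0 of the 11 CAR and PXR targets were called, where 3.46% of all tested genes rose and 0.988% fell.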

How the data were processed

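Per the file headers, the table gives normalized counts and FPKM for every library by Ensembl gene. The normalized count that the authors deposited is treated here as a signal, since its values are not whole reads. FPKM values, as the authors deposited them, were used for levels between genes and as an alternative. Tools named in the submitters' processing notes, without roles, are edgeR and kallisto 0.44.0, and the build is GRCm38.p6. Of the identifiers, 35574 matched a symbol and 135 did not.

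Values were fitted as log2(normalized count + 1), which understates changes of low genes, with limma 3.58.1 in R 4.3.3: 1 coefficient for each of the 4 groups, a mean-variance trend, 8 residual degrees of freedom, genes that reached 1 in 3 or more libraries, and Benjamini-Hochberg adjustment over the 20244 genes within each of 5 comparisons. The fit was tested on simulated data. Genes were named by a rule: each gene called in a comparison, the gene of highest mean FPKM in each of 8 subfamilies, and, where fewer than 3 were called, the 3 of smallest p. The genes and lists were chosen with earlier results of these data known. Copies were compared by coding sequence (GENCODE M21), and promoters are RefSeq's. Those shown were cut before any GENCODE exon base of the gene that fell within the stretch. Totals of normalized counts do not give the sequencing depth, which is unknown here, so the precision stated is the spread between libraries. Alternatives were another normalization, filter, pseudocount, threshold, trend, library weights, a fit to the groups compared, the replicate number as a block, FPKM, scaling without mitochondrial genes and leaving out each library.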

Additional observations from a re-analysis of the deposited data

How the results depend on the processing

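The P450 genes called with all libraries kept their direction in the alternatives run. Cyp2b10, called in Alb-R3 without CCl4 replicate 1 alone, did not: its log2 fold change ran from -0.79 to 1.26. In Alb-R3 with CCl4, the calls of Cyp2a22, Cyp2c23, Cyp2c38, Cyp2c67, Cyp2d9, Cyp2d10, Cyp2d22, Cyp2u1 and Cyp3a44 held in each of 23 alternatives, as did that of Cyp2d22 in Alb-Cre. The 15 genes that fell in Alb-R3 were 8 in a fit to the 6 libraries compared and 9 to 16 when 1 library was left out (9 without any single Alb-R3 oil library), and the 3 that rose were 2 to 5. The 3 that fell in Alb-Cre were 1 after quantile normalization, 1 on FPKM, 9 with library weights, 5 at a threshold of 0.1 and 1 to 7 with 1 library left out (1 without any single Alb-Cre oil library, Alb-Cre CCl4 replicate 1 or 2, or Alb-R3 oil replicate 1 or 2), and 1 gene, Cyp3a59, was higher with library weights. Over all tested genes 234 of 20244 fell in Alb-Cre after quantile normalization, in place of 200, and 107 of 15445 on FPKM. Shares over all tested genes are not given for library weights, the replicate block, the threshold of 0.1, the 6-library fit and most libraries left out. The counts of P450 genes there do not show whether these genes differ from the rest. Between the genotypes after CCl4, where 0 were called, 1 gene (Cyp2a4) was higher after quantile normalization, when scaled without mitochondrial genes, with library weights and at a threshold of 0.1, and 1 was lower with library weights (Cyp2u1) and at a threshold of 0.1 (Cyp2d9). Leaving out 1 library gave 0 to 1 higher (Cyp2a4, without Alb-Cre CCl4 replicate 3 or Alb-Cre oil replicate 2 or 3) and 0 to 1 lower (Cyp2d9, without Alb-R3 CCl4 replicate 2). After oil, 2 were higher with library weights (Cyp2a4 and Cyp2c39) and 0 to 1 with 1 library left out (Cyp2a4 without Alb-Cre CCl4 replicate 3, Cyp2c39 with the library labelled Alb-R3 oil replicate 3 removed). With the replicate number as a block, 1 gene, Cyp2a4, was higher in Alb-R3 after CCl4 (adjusted p = 0.00794) and 1, Cyp2a4, after oil (adjusted p = 0.0359). Among same-numbered libraries, the deviations from the group means had a correlation over 0.1 in 3 of 18 pairs (range -0.19 to 0.20). With 3 libraries per group this does not show whether they share more than a number. The log2 ratio of the Cyp2d sum, CCl4 to oil, was -0.41 in Alb-Cre, and -0.17 on FPKM and -0.22 without mitochondrial genes, and -1.40 in Alb-R3, and -0.99 without mitochondrial genes. Without mitochondrial genes the median of all tested genes moved by 0.18 in Alb-Cre and 0.12 between the genotypes after CCl4, and on FPKM by 0.20 in Alb-Cre and 0.23 in Alb-R3. The cause of these changes was not tested.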
